A study of Homo sapiens with 17 samples.

Results

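H3K4me1 in 500 bp tiles that were marked in primed human pluripotent stem cells (PSCs) and not in naive ones is described here, as measured by CUT&RUN, in which an antibody directs a nuclease to cut and release the DNA around a histone mark. A tile was a member if its log2 RPM (the log2 of the reads in the tile, scaled to 1000000 reads of the library) was above 1 in all 3 primed libraries and below -1 in both naive libraries. This rule was met by 3580 of 5750013 autosomal tiles (0.0623%), or 1790 kb, and adjacent members were merged into 2820 regions. The members were chosen by the H3K4me1 values themselves, so their H3K4me1 levels are given as a description, with no test.

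Both cell types were made from the established embryonic stem cell line H9 NK2 and were grown under 5% O2 and 5% CO2. Naive PSCs were kept on Matrigel in t2iL+Gö medium, a mixture of DMEM/F12 and Neurobasal with the N2 and B27 supplements, the MEK inhibitor PD0325901, the GSK3 inhibitor CHIR99021, human LIF and the protein kinase C inhibitor Go6983. Primed PSCs were kept on Vitronectin in TeSR-E8. The state of the cells and the medium and matrix they grew on therefore cannot be told apart, and 1 line stands for each state. Promoter contacts came from Promoter Capture Hi-C (PCHi-C), which enriches ligated DNA pairs for those that contain a promoter. Each cell type had 1 deposited PCHi-C list, made by the authors from 2 replicates.

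H3K4me1 is laid down by the enzymes KMT2C and KMT2D and is found at active and primed enhancers and at the flanks of active promoters. Naive PSCs resemble the pluripotent cells of the preimplantation embryo, and primed PSCs those of the postimplantation epiblast, which depend on FGF and activin or NODAL signals and lie closer to germ layer formation. Enhancers often lie in introns or between genes, far from the promoter that they act on, and reach it by folding of the chromatin.

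The reference sequences of 6 members are shown because the results below return to these loci. Each is the middle 300 bases of the tile with the highest mean primed value in its region, taken from the plus strand of GRCh38. Capitals mark each match, on either strand, to any of the 16 short motifs whose shares are given further on.
LRFN2 (chr6:40329101-40329400): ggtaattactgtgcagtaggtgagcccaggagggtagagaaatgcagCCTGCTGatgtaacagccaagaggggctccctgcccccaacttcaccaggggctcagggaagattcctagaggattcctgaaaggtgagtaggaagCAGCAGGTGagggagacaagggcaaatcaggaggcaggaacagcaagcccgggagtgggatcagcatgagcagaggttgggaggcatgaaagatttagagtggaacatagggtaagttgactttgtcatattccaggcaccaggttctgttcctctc
GLI2 (chr2:120772101-120772400): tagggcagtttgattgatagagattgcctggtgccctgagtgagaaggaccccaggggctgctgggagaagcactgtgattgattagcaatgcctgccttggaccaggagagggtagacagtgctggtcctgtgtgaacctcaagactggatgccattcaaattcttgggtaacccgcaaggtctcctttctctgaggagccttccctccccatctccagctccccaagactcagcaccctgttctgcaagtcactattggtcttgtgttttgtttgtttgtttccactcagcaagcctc
ROR1 (chr1:63788101-63788400): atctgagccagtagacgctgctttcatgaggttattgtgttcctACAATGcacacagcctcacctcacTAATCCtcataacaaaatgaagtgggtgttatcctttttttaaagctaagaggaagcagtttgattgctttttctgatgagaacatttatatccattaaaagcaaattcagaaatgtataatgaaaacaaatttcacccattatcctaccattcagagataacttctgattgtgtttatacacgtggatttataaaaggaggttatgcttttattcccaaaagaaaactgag
P3H2 (chr3:190014601-190014900): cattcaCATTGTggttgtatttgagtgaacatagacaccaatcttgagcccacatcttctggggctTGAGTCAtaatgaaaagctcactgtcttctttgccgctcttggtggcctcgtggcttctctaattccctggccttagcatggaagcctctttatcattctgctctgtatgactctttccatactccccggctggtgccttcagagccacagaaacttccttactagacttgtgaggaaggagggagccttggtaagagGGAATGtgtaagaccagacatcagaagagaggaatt
FZD2 (chr17:44542101-44542400): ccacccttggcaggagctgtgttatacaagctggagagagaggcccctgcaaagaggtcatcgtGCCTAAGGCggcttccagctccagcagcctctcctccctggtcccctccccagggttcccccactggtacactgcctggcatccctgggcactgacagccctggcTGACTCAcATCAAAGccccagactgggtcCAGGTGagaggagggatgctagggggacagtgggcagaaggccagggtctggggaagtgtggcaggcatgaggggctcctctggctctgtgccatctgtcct
DUSP6 (chr12:89082101-89082400): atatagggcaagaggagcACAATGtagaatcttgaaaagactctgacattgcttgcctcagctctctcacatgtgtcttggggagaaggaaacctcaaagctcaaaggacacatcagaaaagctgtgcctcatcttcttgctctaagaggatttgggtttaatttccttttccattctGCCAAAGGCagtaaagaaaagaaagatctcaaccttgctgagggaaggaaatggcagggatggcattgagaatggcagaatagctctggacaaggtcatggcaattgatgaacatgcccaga
The stretch near LRFN2 lay in the longest region, the stretches in GLI2 and ROR1 lay in the clusters with the most members, P3H2 held the highest region, FZD2 gave the third highest, and the last stretch was the member with the highest scoring contact to DUSP6. The LRFN2 stretch held 2 matches to the ZIC core CAGCAGG, and the FZD2 stretch held 4 matches in all. The GLI2 stretch held 0 matches, which says only that none of these letters occurred in this window.

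The 5 libraries differed in depth. In units of 1000000 reads, the totals recovered from the values were 21.8 and 6.74 in naive replicates 1 and 2, and 8.85, 7.89 and 26.6 in primed replicates 1, 2 and 3. The upper limit corresponded to at least 44, 14, 18, 16 and 54 reads in a tile in this order, and the lower limit to at most 10, 3, 4, 3 and 13 reads. A low value in naive replicate 2 therefore rested on 3 reads or fewer, and 25% of the members had no read there, against 1.93% in naive replicate 1.

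The median member had a log2 RPM of -2.12 and -2.75 in naive replicates 1 and 2, and of 1.66, 1.27 and 1.42 in primed replicates 1, 2 and 3. In reads, the median member held 5 and 1 in the naive libraries and 28, 19 and 71 in the primed libraries. The median difference between the primed and the naive mean was 3.73 on the log2 scale, with a range from 2.24 to 5.77, whereas the median over all autosomal tiles was -0.02. The lowest primed value of any member was 1.02 and the highest naive value was -1.12. Many members lay near the upper limit, with 969 whose lowest primed value was at most 1.1, while 1330 tiles fell just outside it, with a lowest primed value from 0.9 to 1 and naive values that met the rule. Near the lower limit, 188 tiles fell just outside, with a highest naive value from -1 to -0.9.

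**Figure D1:**
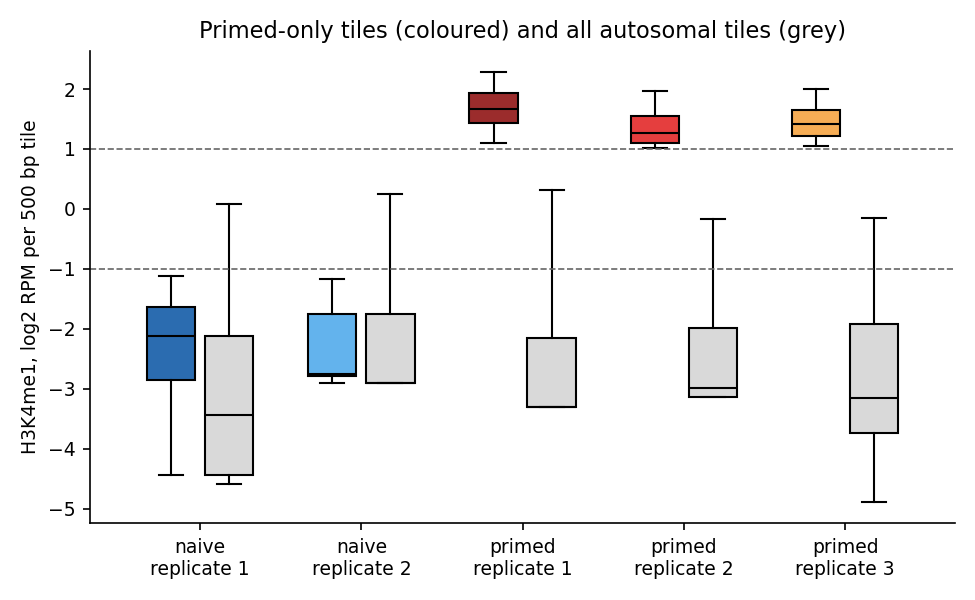
H3K4me1 (log2 RPM per 500 bp tile) of the 3580 primed-only tiles (coloured boxes) and of all 5750013 autosomal tiles (grey boxes) in each library. Boxes span the quartiles with the median as a line, whiskers span the middle 90% of tiles and dashed lines mark the limits of 1 and -1, which the coloured boxes do not cross because the rule chose them so.

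Primed replicate 2 set the size of the set. Of the tiles chosen by the other 4 libraries alone, 91.5% of 3914 also met the limit in primed replicate 1, 68.0% of 5261 in primed replicate 3, 73.8% of 4849 in naive replicate 1 and 77.1% of 4643 in naive replicate 2. In primed replicate 2 the limit was met by 32.8% of 10927 such tiles, whose median there was 0.72. Without this library 10927 tiles in 7140 regions met the rule, in place of 3580 tiles in 2820 regions. For scale, 23147 autosomal tiles were above 1 in all primed libraries and members made up 15.5% of them. The mirror rule, above 1 in both naive and below -1 in all primed libraries, gave 6694 naive-only tiles, and 6068 tiles were above 1 in all 5 libraries.

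Across all tiles, limma on log2 RPM (2 naive against 3 primed libraries, Benjamini-Hochberg adjusted p under 0.05) called 119559 of 453776 tested tiles higher in primed PSCs (26.3%). It called 116473 (25.7%) lower. All 3580 members were among the tiles called higher, which follows from the rule and is no finding about them.

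Most regions were short. A single tile made up 2240 of the 2820 regions (79.4%), 450 had 2 tiles, 93 had 3, 28 had 4, 6 had 5, 2 had 6 and 1 had 7. The longest, chr6:40328501-40332000, spanned 3500 bp between genes, 257 kb from the nearest protein-coding start, that of LRFN2, which encodes a synaptic adhesion molecule. Its mean log2 RPM was -3.32 and -2.68 in the naive libraries and 2.06, 1.52 and 1.81 in the primed libraries. The regions of 6 tiles lay at a promoter of ARHGEF19, a guanine nucleotide exchange factor (chr1:16210501-16213500), and at an annotated promoter 125 kb from the nearest protein-coding start, that of the synaptotagmin gene SYT13 (chr11:45410001-45413000). The ARHGEF19 region had naive values of -1.99 and -1.82 and primed values of 1.87, 1.52 and 1.31. The other regions among the 10 longest were nearest to SEMA3F, FRMD4A, PAX7, FAM167A and ROR1, with 2 nearest to GLI2. The highest mean over the primed libraries was in an intron of P3H2, which encodes a collagen prolyl hydroxylase, at chr3:190014501-190015000. This tile had values of 2.58, 2.34 and 2.59 in the primed libraries and -2.45 and -2.75 in the naive libraries. It was followed by an intronic tile of the ephrin receptor gene EPHB3, with 2.38, 2.60 and 2.21 in the primed libraries.

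At the tile 500 bp downstream of the middle tile of a region, the mean log2 RPM was 1.26, 0.66 and 0.99 in the primed libraries, and at 10000 bp it was -1.42, -1.47 and -1.51. The naive means at these distances were -2.44 and -2.15, then -2.74 and -2.19. Of the 5640 tiles that directly adjoined a region, 577 (10.2%) were above 1 in all primed libraries and 2 were above 1 in a naive library. A tile marked in both naive libraries lay within 5 kb of 123 regions (4.36%), while another tile marked in all primed libraries lay within 5 kb of 1004 (35.6%). The rule favours this order by choosing low naive and high primed values, and these shares were not taken for other tiles.

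**Figure D2:**
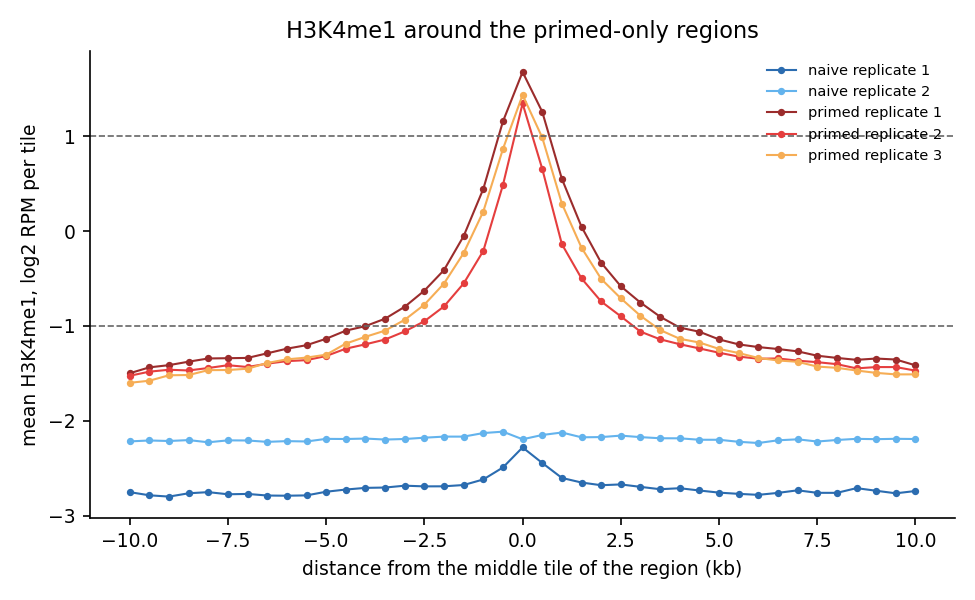
Mean H3K4me1 (log2 RPM per tile) of each library by distance in kb from the middle tile of the 2820 primed-only regions. Dashed lines mark the limits of the rule. The 3 primed curves fall from 1.68, 1.35 and 1.44 at the middle tile, and the naive curves stay below -2.

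Members were spread over every autosome but not evenly. Chromosome 1 held 462 (12.9% of members, on 8.36% of the tiles with known sequence) and chromosome 11 held 260 (7.26% on 4.88%). Chromosome 21 held 24 (0.67% on 1.45%), chromosome 4 held 150 and chromosome 19 held 48. On chromosome 18, members made up 23.5% of the tiles marked in all primed libraries, the highest share of any autosome, and on chromosome 17 they made up 9.52%, the lowest. The share of background reads, those in tiles below 0 on the log2 scale in every library, also differed between the states by chromosome. Its log2 ratio of primed to naive libraries was 0.13 on chromosome 18, the highest of any autosome, -0.18 on chromosome 17 and -0.41 on chromosome 19, the lowest, and its part in these shares was not tested.

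Of the 2820 regions, 1771 (62.8%, 95% Wilson interval 61.0 to 64.6) lay in an intron, 593 (21.03%, 19.6 to 22.6) between genes, 205 (7.27%) on an exon and 251 (8.90%, 7.90 to 10.01) at a promoter, taken as a transcript start and the 1000 bp before it. By tiles, 64.3% of members were intronic and 20.4% lay between genes, against 49.8% and 37.0% of all autosomal tiles. Naive-only tiles were at 49.1% and 34.3%. Tiles marked in both states were at 58.2% and 20.2%. The promoter share was 8.60% of members, 7.54% of naive-only tiles, 14.4% of tiles marked in both states and 5.82% of all tiles. A protein-coding gene contained 1838 regions (65.2%), 109 regions touched coding sequence and 146 touched a UTR. These shares depend on the annotation, since with protein-coding genes alone 55.7% of regions were intronic and 33.7% lay between genes.

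The median distance from a region to the nearest protein-coding start was 23.1 kb, compared with 13.4 kb for naive-only regions, 10.6 kb for regions marked in both states and 41.7 kb for all tiles. Only 298 regions (10.6%) lay within 2 kb of such a start, 541 (19.2%) lay beyond 100 kb and 56 beyond 500 kb. These differences were not tested.

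In composition, members had a median GC content of 47.8% and a median of 5 CpGs in 500 bp. All autosomal tiles of known sequence had 40% and 4, naive-only tiles 45.2% and 5, and tiles marked in both states 48.8% and 6. At least 20 CpGs were held by 52 members (1.45%), by 1.55% of naive-only tiles, 4.24% of tiles marked in both states and 2.19% of all tiles.

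Each of the 16 motifs was searched by its letters on both strands within every tile, and shares were also taken among tiles within the interquartile range of the members' GC content, called the GC band here. Repeats were not masked, unlike in the study's own motif search, and their part in these shares and in the changes within the GC band was not tested. The ZIC core CAGCAGG, the short form of the site of ZIC zinc finger factors, was in 24.7% of members (95% Wilson interval 23.3 to 26.2), in 12.3% of naive-only tiles, in 22.7% of tiles marked in both states and in 9.16% of all autosomal tiles. In the GC band it was in 25.3% of members and 13.1% of all tiles. The E-box CAGCTG was in 31.5% of members and 16.02% of all tiles (31.4% and 22.1% in the GC band), and the TFAP2 site GCCNNNGGC in 16.5% and 7.22% (14.02% and 9.70%). Tiles marked in both states were at 30.3% for CAGCTG and 20.1% for the TFAP2 site, and naive-only tiles at 21.3% and 14.5%. The octamer ATGCAAAT of POU factors was in 5.14% of members, 3.78% of naive-only tiles, 7.32% of tiles marked in both states and 4.97% of all tiles, and in the GC band in 5.71% of members and 2.66% of all tiles. The composite OCT4-SOX2 core TTGTNATGC was in 1.87% of members and 1.34% of all tiles (2.22% and 1.03% in the GC band). The homeodomain core TAATCC was in 16.1% of members, 30.4% of all tiles and 38.1% of naive-only tiles, and in the GC band in 16.9% of members and 43.3% of all tiles.

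For 5 motifs the order of members and all tiles turned in the GC band. The KLF core GGGTGTG, a form of the site of KLF factors, was in 8.77% of members and 7.74% of all tiles but in 8.09% and 12.9% in the GC band, while 18.2% of naive-only tiles held it. CAGGTG of E proteins and ZEB factors was in 41.4% of members and 31.6% of all tiles, and in the GC band in 42.9% and 50.1%. CATTGT of SOX factors went from 24.4% and 27.2% to 25.7% and 21.1%, CTTTGAT of TCF/LEF factors from 7.79% and 8.26% to 7.59% and 5.996%, and AGATAAG of GATA factors from 6.84% and 7.04% to 7.53% and 5.83%. The other 5 motifs kept their order, with CATTCC of TEAD factors in 31.6% of members and 24.98% of all tiles (31.7% and 25.4% in the GC band), the AP-1 site TGANTCA in 16.2% and 14.8% (17.3% and 14.9%), TGTTTAC of forkhead factors in 7.93% and 7.64% (7.59% and 5.12%), AACNGGTT of GRHL and TFCP2L1 factors in 4.50% and 3.51% (4.54% and 2.94%) and CCGGAAG of ETS factors in 2.04% and 1.18% (2.22% and 1.66%). Tiles marked in both states held these last 5 motifs in 34.0%, 17.0%, 8.78%, 3.92% and 2.47% of cases, in the same order. The motifs can overlap one another and a match is a run of letters, not a measured binding site.

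**Figure D3:**
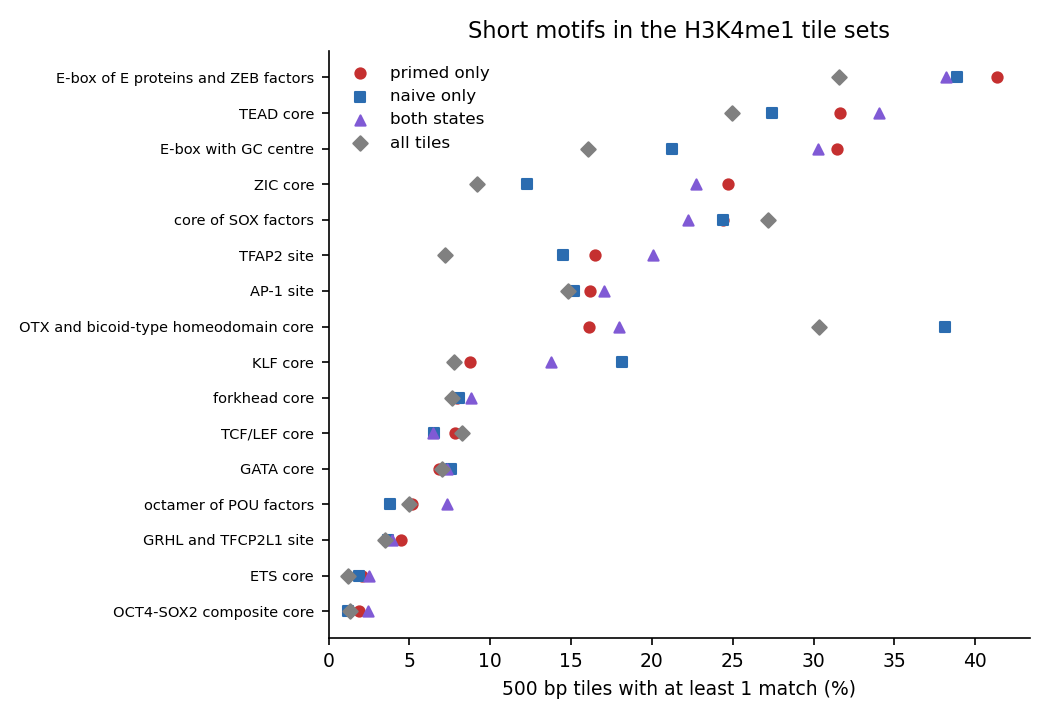
Share of 500 bp tiles (%) with at least 1 match to each of 16 short motifs, in primed-only tiles (red circles), naive-only tiles (blue squares), tiles marked in both states (violet triangles) and all autosomal tiles of known sequence (grey diamonds). The ZIC core sits at 24.7% in primed-only tiles and at 9.16% in all tiles, and the KLF core sits highest in naive-only tiles.

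A total of 1565 of 19103 autosomal protein-coding genes had the start nearest to a region, of which 1021 had a single region, 88 had at least 5 and 15 had at least 10. The 88 genes took 22.9% of all regions. Of the 1565 genes, 254 were also nearest to a naive-only region, beside 2768 of all 19103 genes. ROR1, a receptor tyrosine kinase-like receptor for WNT5A, had the most with 20 regions, 18 of them inside the gene. Over these 20 regions the naive values reached at most -1.12, and the median was 1.99, 1.34 and 1.74 in primed replicates 1, 2 and 3. GLI2, a transcription factor of Hedgehog signalling, had 17 regions with 37 tiles, 15 of them intronic, with primed medians of 1.64, 1.60 and 1.496. NTM, a neural cell adhesion molecule, also had 17, followed by 16 at FAT3, an atypical cadherin. LRFN2, SLC22A23 and the E protein gene TCF4 had 12 each, and MECOM, NEDD4L and DUSP6 had 11 each. Without primed replicate 2, TCF4 had 46 regions, FAT3 43, MECOM 35, ROR1 34, NTM 26 and NEDD4L 18, so which of these genes came first depended on that library.

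Joined where at most 25 tile widths of 500 bp lay between them, regions formed 126 clusters of at least 3, which took 465 regions (16.5%), and 17 clusters of at least 5. The cluster with the most members lay in GLI2, at chr2:120749501-120803000, with 11 regions and 29 tiles over 53.5 kb. Its mean over the whole span was -3.02 and -2.37 in the naive libraries and 0.68, 0.61 and 0.52 in the primed libraries. Its highest region, chr2:120764501-120766500, had 2.01, 2.00 and 2.00 in the primed libraries and -2.27 and -2.50 in the naive libraries. The lowest in primed PSCs, chr2:120788001-120788500, had 1.38, 1.02 and 1.22. None of the 11 regions had a counted promoter contact in either list. Contacts of regions were counted only where the fragment of the region carried no bait. The GLI2 start reached 2 other regions, 124 kb and 137 kb away, in the primed list alone, with scores of 5.42 and 6.37. The fragment of that start had 13 primed and 4 naive contacts in all. The next cluster ran from just before the nearest start of ROR1 into the gene, at chr1:63772001-63797500, with 10 regions and 19 tiles over 25.5 kb and span means of -1.86 and -2.01 in the naive and 1.73, 0.94 and 1.47 in the primed libraries. A second ROR1 cluster of 4 regions and 9 tiles lay 130 kb to 139 kb from the nearest start, at chr1:63905001-63915500. ARHGEF10L (9 regions), MYO18B (6), PREX2 (7), FGD5 (6), COL13A1 (7), NAV2 (6), FAT3 (5) and GRIK3 (4) held the other clusters among the first 11. None of these 11 clusters held a naive-only tile or a tile marked in both states. Such tiles were rare everywhere, with 6694 and 6068 among 5750013 autosomal tiles, so their absence is no trait of these clusters. In windows of 1 Mb, 1207 of 2887 held a region and 17 held at least 10.

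**Figure D4:**
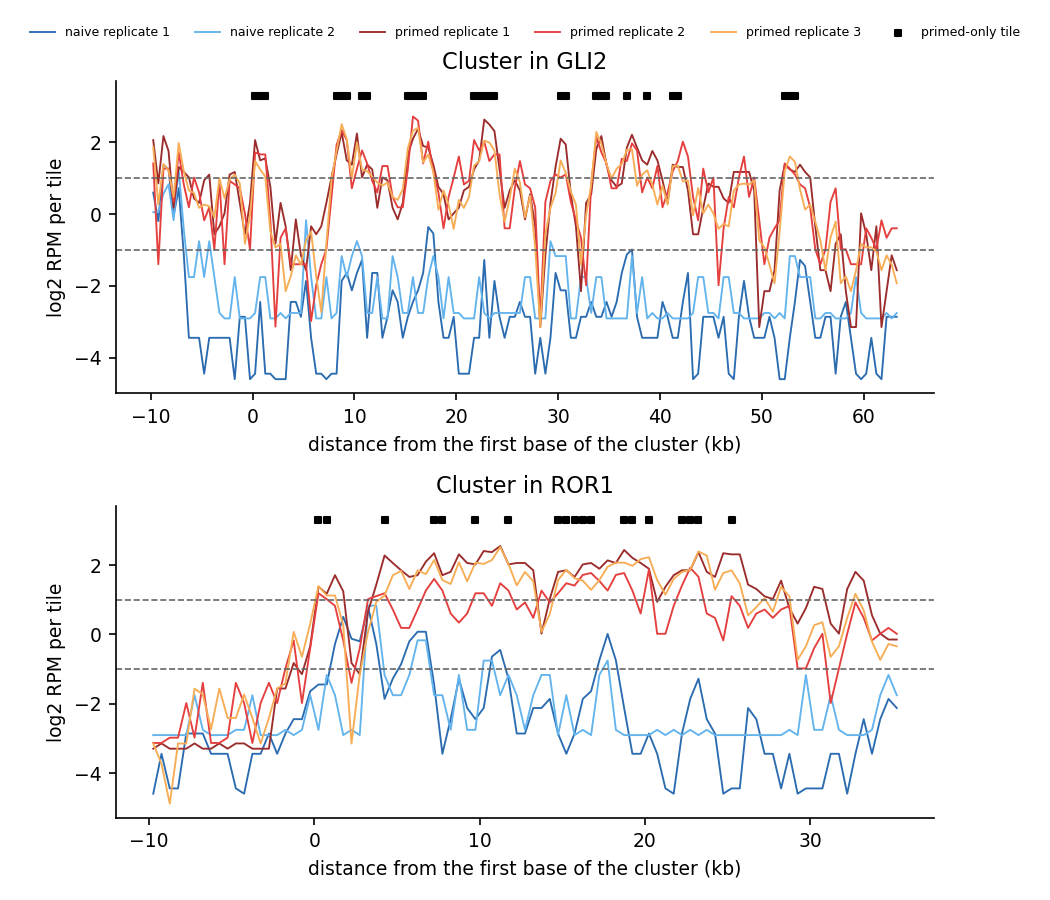
H3K4me1 (log2 RPM per 500 bp tile) of each library along the clusters in GLI2 (53.5 kb, above) and ROR1 (25.5 kb, below), by distance in kb from the first base of the cluster. Black squares mark primed-only tiles, 29 in GLI2 and 19 in ROR1, and dashed lines mark the limits of the rule. The primed lines rise above the naive lines over most of each span, also between the members.

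Marker genes of the 2 states were then set beside the regions. Among 19103 autosomal protein-coding genes, 1815 (9.50%) had a primed-only region within 50 kb of a start. Of 12 primed markers, 7 had one, and of 14 naive markers 0 had one, while 9 naive markers had a naive-only region, for which the share over all genes was 24.7%. The primed markers with regions were THY1 (4), a surface glycoprotein, DUSP6 (3), a phosphatase of ERK, PTPRZ1 (3), a receptor phosphatase, ZIC2 (3), a zinc finger factor, and CDH2, DNMT3B and SFRP2 (1 each). In the THY1 promoter tile chr11:119424501-119425000, primed values were 1.94, 1.34 and 1.46 and naive values -2.45 and -2.75. The DNMT3B tile chr20:32779501-32780000 lay at its start, with 1.18, 1.34 and 1.05 against -2.86 and -2.91, beside 6 regions within 50 kb that were marked in both states. The ZIC2 region of 3 tiles nearest to its start, chr13:99974501-99976000, had 1.32, 1.66 and 1.28 in the primed and -1.74 and -1.56 in the naive libraries. OTX2, SOX11, SALL2, CD24 and VIM had 0. CD24 had 1 naive-only region and was the only 1 of the 12 primed markers with such a region. Of 13 core pluripotency factors, among them POU5F1, SOX2 and NANOG, 0 had a primed-only region and 10 had a region marked in both states, beside 9.50% and 20.8% of all genes, and 0 of 13 lies near the first of these. These lists were chosen with earlier results of these data known, so their counts are a description.

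Signalling genes had regions at negative regulators as well as at receptors and effectors. The counts below stand beside the 9.50% of all genes with a primed-only region. In FGF and ERK signalling 8 of 24 genes had a region, among them ETV5 (4), an ETS factor induced by ERK, the pathway inhibitors SPRY4 (4), DUSP6 (3), SPRED1 (2) and SPRED2 (1), and the ligand gene FGF1 (2). The 4 ETV5 regions had primed values from 1.02 to 2.14 and naive values from -4.02 to -1.64. In BMP signalling 7 of 20 genes had one, led by SMAD6 (4), an inhibitory SMAD, with BMP7 and ID2 (2 each). In NODAL, activin and TGF-beta signalling 4 of 20 had one, namely SMAD3 (2), LEFTY1, TGFB2 and TGFBR2. In WNT signalling 6 of 43 had one (13.95%), the lowest share of these signalling lists. They were led by the receptor gene FZD2 (5) and by TCF7L1 (4), a TCF factor that represses targets in the absence of WNT. The FZD2 tile chr17:44543001-44543500 had 2.64, 2.31 and 2.16 in the primed libraries and -1.28 and -2.75 in the naive libraries. In Hippo signalling 5 of 23 had one, with 9 at FAT3 and 6 at AMOTL1, an angiomotin that binds YAP. More WNT genes (11) and Hippo genes (7) had a naive-only region than a primed-only one, beside 24.7% of all genes with a naive-only region. In the FGF and ERK list 4 genes had a naive-only region, in the BMP list 3 and in the NODAL, activin and TGF-beta list 1, fewer than had a primed-only one. These differences were not tested.

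Genes of axon guidance and synaptic adhesion had regions in 24 of 59 cases (40.7%), beside the 9.50% of all genes. EPHB3 (6), its relatives EPHB1 (2) and EPHB2 (1), the ligand gene EFNA5 (5), NTM (6), TENM4 (4) and SLIT3 (2) were among them. These genes include long ones with many annotated starts, whose windows cover more sequence, and the count was not adjusted for that. Of 55 neural transcription factor genes 15 had a region, namely TCF4 (12), the neighbours ZIC1 and ZIC4 (4, shared), ZIC2 and ZIC5 (3, shared), PAX7 (3), EMX1 and SIX6 (2 each) and FEZF1, HES1, LHX2, LHX5, NEUROG2, OLIG3 and PAX3 (1 each). At TCF4 the tile on a start, chr18:55423501-55424000, had 2.14, 1.88 and 1.82 in the primed and -1.86 and -1.75 in the naive libraries. Of 34 primitive streak, mesoderm and endoderm factor genes 11 had one, among them LHX1 and TBX5 (3 each) and TBXT, EOMES and GSC (1 each). Of 39 HOX genes 2 had one, both in the HOXC cluster, while 26 had a naive-only region and 31 a region marked in both states. Over all genes the naive-only share was 24.7% and the share with a region marked in both states was 20.8%. HOX genes lie side by side in clusters, so 1 region can count for many of them. The number of separate regions behind these counts was not taken. In the remaining lists a primed-only region was near 3 of 25 cadherin and catenin genes, 4 of 22 trophoblast and amnion genes, 3 of 23 genes of DNA methylation and Polycomb and 4 of 15 genes of a list for metabolism. That list includes the transcription factor gene ESRRB, which had 3 primed-only regions and 1 naive-only region.

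Promoter contacts were measured independently of the rule. A partner fragment is the HindIII fragment at the other end of a contact of a baited promoter that carries no bait itself, and a tile was counted by its middle. Partner fragments of the primed list held 367 members (10.3%, 95% Wilson interval 9.30 to 11.3) and those of the naive list 239 (6.68%, 5.90 to 7.54). The ratio of 1.54 (1.38 to 1.71) stood beside 1.12 over all autosomal tiles, 1.09 over the other tiles marked in all primed libraries, 0.90 over tiles marked in both states and 0.71 over naive-only tiles. By list, 165 members lay in partner fragments of both, 202 in those of the primed list alone, 74 in those of the naive list alone and 3139 in neither. A member on a baited fragment could not count as lying in a partner fragment, and 217 members (6.06%) lay on one. The intervals cover counting error only, members in the same fragment are not independent, and with 1 list per cell type the difference has no replicate check. Without primed replicate 2 in the rule, the shares were 9.36% and 5.53%.

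**Figure D5:**
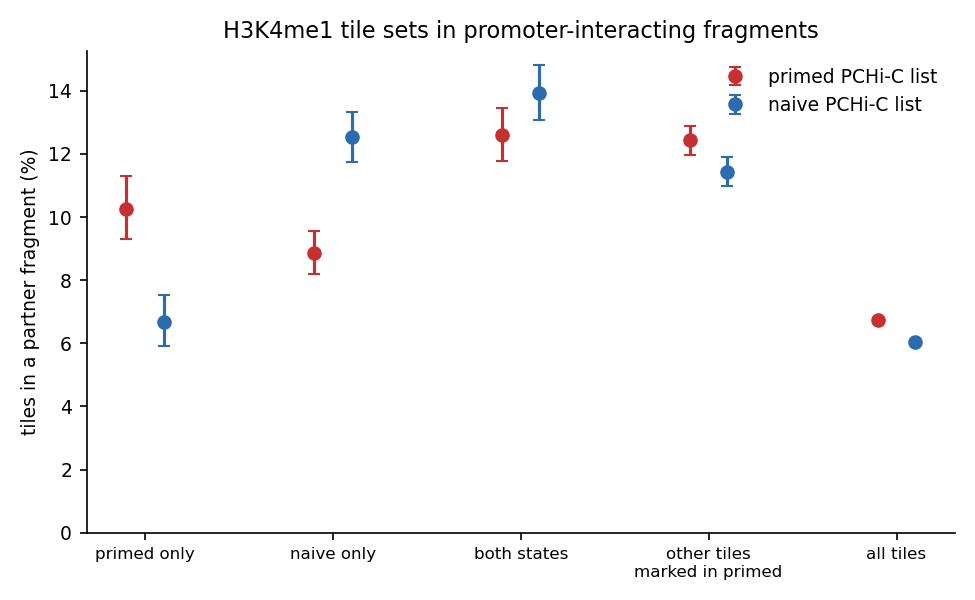
Share of tiles (%) whose middle lay in a partner fragment of the primed (red) or naive (blue) PCHi-C list, for 5 sets of H3K4me1 tiles, with 95% Wilson intervals of counting error. Primed-only tiles sit at 10.3% and 6.68%, and naive-only tiles at 8.86% and 12.52%.

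Seen by contact, members took part in 409 primed and 256 naive contacts, of which 158 were in both lists. Contacts over 1 Mb numbered 36 in the primed and 3 in the naive list, and over all tiles they numbered 5253 and 1001. The median distance was 258 kb and 242 kb. Of the 158 shared contacts, 84 had the higher score in the primed list. By region, 289 were contacted in the primed list, 182 in the naive list and 128 in both. The gene with the nearest start was contacted by 92 of the 289 regions (31.8%) in the primed list and by 43 of 182 (23.6%) in the naive list. Of the 256 regions more than 200 kb from a protein-coding start, 22 (8.59%, 5.74 to 12.7) were contacted in the primed list and 5 (1.95%, 0.84 to 4.49) in the naive list. Of the 913 within 10 kb, 94 (10.3%) and 73 (7.996%) were. These shares by distance were not taken for all tiles, so they are not shown to be particular to the members. Contacts of all tiles had a median distance of 313 kb in the primed and 243 kb in the naive list.

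On the promoter side, 344 baited fragments contacted a region in the primed list and 227 in the naive list, 145 of them in both. GOLT1A, a Golgi transport gene, PLEKHA6 and DUSP6 had 6 regions each in the primed list, and 6, 1 and 0 in the naive list. With any fragment, GOLT1A had 21 primed and 24 naive contacts, and PLEKHA6 had 8 and 8. The GOLT1A and PLEKHA6 contacts of the primed list reached the same 6 regions, each nearest to PLEKHA6, and 5 of these lay in 1 fragment. For GOLT1A the best score was 13.18 in the primed and 21.09 in the naive list, so these members had promoter contacts in both cell types. DUSP6 had 35 contacts in the primed list and 0 in the naive list. Of its 6 regions, 5 lay 255 kb to 272 kb away, and the highest score was 11.95, at chr12:89082001-89082500. That tile had 2.18, 1.77 and 2.09 in the primed and -2.86 and -2.75 in the naive libraries. SPATS2L had 5 regions in the primed and 1 in the naive list, within 42 contacts against 13 in all. TCF7L2, a TCF factor of WNT signalling, had 5 regions in the primed and 0 in the naive list, within 72 contacts against 16 in all. ROR1 had 4 and 2, and its second cluster was contacted from the start of the gene with a score of 11.01 in the primed and 7.26 in the naive list. PODXL, which encodes a sialomucin of the cell surface, had 4 and 0, all in 1 fragment, within 3 contacts against 0 in all. Of baited fragments without an annotated promoter, chr14:60639685-60640832 had 5 and 4 regions, chr6:41550648-41555865 had 4 and 1, and chr3:190139094-190144951 had 3 and 0, with the tile in P3H2 among them at a score of 10.52. In all, these fragments had 51 and 46, 31 and 12, and 32 and 0 contacts.

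In the naive list GOLT1A had the most regions, followed by the fragment chr14:60639685-60640832 with 4 and LYRM2, CRIM1, TCP11 and the fragment that holds HOXC6, HOXC8 and HOXC9 with 3 each. TCP11 had 0 in the primed list, and its 3 regions lay in 1 fragment, 86.3 kb away, with a score of 5.37 in the naive list. In all, TCP11 had 5 primed and 14 naive contacts. LYRM2 had 3 in the primed list too.

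Over 12365 protein-coding genes on baited fragments, 285 (2.30%) contacted a region in the primed list and 184 (1.49%) in the naive list. Of 54 neural transcription factor genes 13 did so in the primed list and 4 in the naive list. LHX2, LHX5 and PAX7 reached 2 regions each in the primed and 0 in the naive list, ZIC2 and ZIC5, on 1 fragment, reached 2 and 1, as did SIX6, POU3F1 reached 1 and 1, and FEZF1, GBX2, HES1, OTX2, ZIC1 and ZIC4 reached 1 and 0. The ZIC2 contact with the region at chr13:99961001-99962500 had a score of 9.88 and was in the primed list alone. The 1 OTX2 contact spanned 3831 kb. Of the 7 primed markers on baited fragments 4 did so in the primed list, DUSP6, ZIC2, OTX2 and VIM, and 2 in the naive list. Of the 7 naive markers, TBX3 and TFAP2C did so in the primed list, with 1 region each, and 0 in the naive list. In Hippo signalling, where FAT3 and AMOTL1 had many regions nearby, 0 of 20 genes contacted one in either list, and the same held for 13 genes of NODAL, activin and TGF-beta signalling and for 7 core pluripotency factors. In lists of this size, 0 lies near the 2.30% and 1.49% of all genes. HOX genes on baited fragments did so in 7 of 38 cases in the primed and 5 in the naive list, all in the HOXC cluster and partly on shared fragments. In the primed list these 7 genes reached the same 2 regions, in 1 partner fragment (chr12:53746136-53756898), so their count rests on that fragment. In the primed list the count was 3 of 45 for axon guidance and synaptic adhesion, 3 of 29 for primitive streak, mesoderm and endoderm factors, 2 of 35 for WNT and 2 of 21 for FGF and ERK signalling.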

How the data were processed

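The CUT&RUN data for H3K4me1 comprised 5 libraries, 2 of naive and 3 of primed PSCs. The authors trimmed reads with Trim Galore 0.5.0, mapped them with Bowtie2 2.3.2 and extended them to 300 bp. The deposited unit is log2 RPM for each tile of 500 bp, and tiles without a read were set to the value of 0.9 reads. Whole reads came back from 100% of the values within 0.01 reads, and depths came from them. For PCHi-C the authors combined 2 replicates per cell type in CHiCAGO and deposited each contact with a score of at least 5, a weighted p-value on a log scale, beside the combined read number (signal) of the pair. Lengths and fragment ends are those of GRCh38. The deposited Hi-C counts were not used here, and ChIP-seq was not analysed here.

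Groups came from the labels. Gene features came from GENCODE release 44, with a promoter taken as a transcript start and the 1000 bp upstream. Regions within 25 tile widths were joined into clusters. The list counts took regions within 50 kb of a start. All tiles with log2 RPM above 0 in at least 2 libraries entered a two-sided comparison in limma 3.58.1 under R 4.3.3, with an intensity trend in its moderated variances, and the fit was tested on simulated data. The study's methods call the libraries biological replicates of 1 line, and the p-values measure the spread between these libraries. Python 3.11.15, numpy 2.4.6, pandas 2.3.3, numba 0.67.0 and matplotlib 3.10.9 were used. Intervals are 95% Wilson intervals, and for ratios 95% intervals on the log scale, of counting error.

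The members and the lists were chosen with earlier results of these data known. The regions, clusters, genes and promoters named are those with most tiles or regions, and in each list the genes with most regions. Genes with fewer regions, the primed and naive markers without a region, and the highest tiles were named after their values were seen. Alternatives changed the limits, the libraries, the normalization, the pseudocount, the merging, the features, the overlap and the score. A result outside these rules is not reported here.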

Additional observations from a re-analysis of the deposited data

How the results depend on the processing

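The size of the set depended on the limits. With limits of 1.5 and -1.5 it held 285 tiles in 257 regions, and with 0.5 and -0.5 it held 17141 tiles in 11994 regions. Leaving out 1 library gave from 3914 to 10927 tiles and from 3058 to 7140 regions, primed shares in partner fragments from 9.36% to 10.9%, naive shares from 5.53% to 7.19% and ratios from 1.47 to 1.69, the highest counts and the lowest naive share being without primed replicate 2. The stricter limits gave a naive share of 4.56% and a ratio of 2.08, and a score of at least 10 gave shares of 2.23% and 1.37%, with a ratio of 1.63. The primed share was above the naive share under every alternative run, but it was so over all autosomal tiles too (6.74% and 6.04%, a ratio of 1.12). Every alternative also used the same 1 list per cell type, so this order is no replicate check. Quantile normalization gave 4372 tiles, which held 79.8% of the members.

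With the middle of each region in place of any overlap, 6.13% lay at a promoter and 68.1% in introns, and with protein-coding genes alone 5.64% lay at a promoter, 55.7% in introns and 33.7% between genes. The median distance to the starts of all genes was 10.7 kb. Joining within 50 kb gave 201 clusters of at least 3 regions.

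In limma, a filter of log2 RPM above -1 in at least 2 libraries gave 236688 tiles higher in primed PSCs, and leaving out 1 library gave from 88136 to 135954. With the replicate block the count was 104436. Tiles lower in primed PSCs numbered 232115 with that filter, from 63723 to 129127 with 1 library left out and 95140 with the block. The libraries share only a number, and same-numbered libraries had correlations of 0.034 and 0.030 in their deviations from the group means, so no pairing was used. Of the counts of regions nearest to the 10 genes with most regions, 27 of 80 under the alternatives, which were chosen after seeing the data, moved by over 1.5 times. The depth of naive replicate 2 limits the low side of the rule to 3 reads.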
